A study of Mus musculus with 32 samples.

Results

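DNase I hypersensitive sites (DHS) are stretches of open chromatin at which DNase I cuts readily, and most enhancers and promoters in use lie within one. Of the 56794 DHS listed for the liver of vehicle-treated mice, 8488 shared no base with any of the 63473 DHS listed after dexamethasone, and these 8488 are called lost DHS here. The other 48306, which shared at least 1 bp with a dexamethasone DHS, are called retained, and the 15076 dexamethasone DHS that shared no base with a vehicle DHS are called dex-only. The lost DHS were chosen from the 2 DNase lists themselves, so their number, width and spacing, their distance to dexamethasone DHS and to dex-only DHS, and the loss of their neighbours are given as a description. C/EBPβ peaks come from another assay, and comparisons of vehicle peaks alone use the 2 DNase lists through the sites. Of the dexamethasone C/EBPβ peaks, however, 3617 of 25392 (14.2%) lay outside dexamethasone DHS. Comparisons that use the dexamethasone C/EBPβ list are therefore tied in part to the choice. Peaks of the glucocorticoid receptor (GR) come from another assay too, but nearly all of them lie in dexamethasone DHS, so the GR comparisons are tied in part to the choice. Vehicle DHS that hold a GR peak were nearly all retained. Comparisons of vehicle C/EBPβ keep these DHS unless stated, so they too are tied in part to the choice.

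The dexamethasone group (DNase-seq, C/EBPβ and GR ChIP-seq, 2 samples each) and the vehicle group (DNase-seq, C/EBPβ and GR ChIP-seq, 2 samples each) were livers of male C57BL/6 mice aged 8 weeks. All animals, vehicle controls included, were adrenalectomized, which removes the main source of their own glucocorticoid. Dexamethasone was given at 1 mg/kg as a cyclodextrin complex and vehicle as cyclodextrin alone, each by intraperitoneal injection in 300 ul saline, and the series' design gives a time of 1 h. Whether animals were pooled is not given in the sources used here. DNase-seq and C/EBPβ have 1 interval list per condition. GR has a single list of 11666 peaks that names no treatment, so whether its peaks are those of dexamethasone livers, of vehicle livers or of both is unknown. The lists hold positions only, with no height, count or replicate column. Depth is therefore unknown, the change from vehicle to dexamethasone has no replicate check, and a site that closed cannot be told apart from one whose signal fell just under the authors' threshold. The livers were bulk tissue, so fewer cells with an open site and less opening per cell cannot be told apart either, and the lists hold no levels against which the tissue label could be checked.

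Dexamethasone is a synthetic glucocorticoid. It binds GR, a nuclear receptor that then enters the nucleus, binds DNA as a dimer or with other factors, and raises or lowers transcription. In liver, GR acts on glucose, lipid and amino acid metabolism and on inflammatory genes. C/EBPβ belongs to the basic leucine zipper family and binds many enhancers of hepatocytes, and the series' title asks whether C/EBP factors keep liver chromatin open and help GR to bind.

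Lost DHS were 14.9% of the vehicle list (95% Wilson interval 14.7 to 15.2), and dex-only DHS were 23.8% of the longer dexamethasone list. With that list cut to its widest intervals at the length of the vehicle list, the lost share was 18.7% and the dex-only share 20.0%. The 2 shares then lay closer together, which the cut fixes in part. Fewer dexamethasone intervals can only raise the lost share. The cut also removed the narrowest ones, and dex-only DHS had a median width of 476 bp against 591 bp for the whole dexamethasone list. In sequence covered, lost DHS took up 3.82 Mb of the 36.9 Mb of the vehicle list and dex-only DHS 7.29 Mb of the 41.2 Mb of the dexamethasone list. These Wilson intervals, and those in parentheses after later shares, treat regions as independent and cover counting error only.

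Lost DHS were mostly narrow sites. Their median width was 453 bp (interquartile range 376 to 524 bp), against 625 bp (523 to 769 bp) for retained DHS and 476 bp (385 to 567 bp) for dex-only DHS. In deciles of vehicle DHS width, the lost share was 45.1% in the narrowest decile (150 to 400 bp), 36.3%, 25.4% and 18.1% in the next 3, 11.6% and 6.65% in the middle 2, and 2.59%, 1.35%, 1.06% and 0.564% in the 4 widest, the last of which spans 977 to 6234 bp. The 5 narrowest deciles held 7799 of the 8488 lost DHS (91.9%). Intervals of exactly 251 bp made up 211 lost DHS (2.49%) and 157 retained ones (0.325%), and intervals of exactly 150 bp made up 186 lost (2.19%) and 584 retained ones (1.21%). Among DHS of all other widths the lost share was 14.5%. Width came from the same DNase data as the choice, so the odds ratios for binding that follow hold width deciles equal unless stated. Plain shares and counts of chromosomes do not, except where shares are given by width decile or reweighted to widths.

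Few sites lay at the edge between lost and retained. The 5 lost DHS closest to a dexamethasone DHS, 3 of them on chromosome 8 and 1 each on chromosomes 10 and 17, touched it with a gap of 0 bp. The 5 retained DHS with the least overlap, on chromosomes 1, 2, 3, 7 and 8, shared 1 bp with it. A gap of 50 bp or less was seen at 145 lost DHS and an overlap of 50 bp or less at 208 retained DHS. The median overlap of a retained DHS with its dexamethasone DHS was 567 bp. The median gap of a lost DHS to the nearest dexamethasone DHS was 5160 bp (quartiles 1297.5 and 17633 bp), so most lost DHS were not small shifts of a site. The nearest dexamethasone DHS lay under 100 bp away at 3.17% of lost DHS, from 100 to below 500 bp at 10.3%, from 500 to below 1000 bp at 7.94%, from 1000 to below 10000 bp at 27.8% and 14.2% (split at 5000 bp), from 10000 to below 50000 bp at 26.9%, and farther away at 5.45% and 4.25% (split at 100000 bp). A dex-only DHS was that nearest site for 1536 lost DHS (18.1%), while dex-only DHS made up 23.8% of the dexamethasone list. Where the nearest site lay under 1000 bp away, it was dex-only in 175 of 1816 cases (9.64%).

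C/EBPβ peaks were rarer in lost than in retained DHS, and were about as rare in dex-only DHS. After dexamethasone, C/EBPβ was listed in 656 lost DHS (7.73%, 7.18 to 8.32) and in 18503 retained ones (38.3%, 37.9 to 38.7), with 11.1% for dex-only DHS (10.6 to 11.6). After vehicle, C/EBPβ was listed in 928 lost DHS (10.9%, 10.3 to 11.6) and in 16759 retained ones (34.7%, 34.3 to 35.1), with 6.59% for dex-only DHS (994 of 15076). Lost DHS thus had C/EBPβ less often than dex-only DHS after dexamethasone and more often after vehicle. Each class was chosen for being in the DNase list of 1 condition only, so this order is fixed in part by the choice. A logistic regression across all 56794 vehicle DHS, with width deciles as a factor and errors clustered by chromosome, gave odds ratios of lost over retained DHS of 0.248 for dexamethasone C/EBPβ (95% interval 0.229 to 0.268) and 0.412 for vehicle C/EBPβ (0.379 to 0.447). Without width as a factor they were 0.135 and 0.231, and among DHS at or above the median width 0.131 and 0.266. Retained DHS reweighted to the width deciles of lost DHS held dexamethasone C/EBPβ in 24.1% and vehicle C/EBPβ in 22.0%. With width held equal both odds ratios thus stayed below 1, though both are tied in part to the choice. For vehicle C/EBPβ the tie comes through DHS with a GR peak, nearly all of which were retained. Leaving these out, with deciles of the gap to GR as a further factor, gave 0.483 (0.444 to 0.524). That setting was chosen after seeing the data, and its vehicle C/EBPβ shares were 10.9% of lost and 27.4% of retained DHS. With all vehicle DHS kept, the vehicle C/EBPβ share was lower in lost than in retained DHS on 21 of 21 chromosomes.

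The same relation was seen from the side of the vehicle DHS. Of those with a vehicle C/EBPβ peak 5.25% were lost (4.93 to 5.59), and of those without one 19.3% (18.9 to 19.7). These shares include DHS with a GR peak, nearly all of which were retained. Among DHS without a GR peak or one within 10 kb, 8.32% with C/EBPβ and 22.0% without it were lost. Among those with GR only outside the DHS but within 10 kb, the shares were 6.59% and 16.3%. With all vehicle DHS counted again, 36.2% of DHS with C/EBPβ in the narrowest decile were lost (198 of 547), against 46.1% of those without. In the second decile (401 to 466 bp) the shares were 23.4% with C/EBPβ and 39.1% without, in the fifth (555 to 596 bp) 5.60% and 14.0%, and in the seventh (642 to 698 bp) 0.895% and 3.60%. The share with C/EBPβ was below the share without it in 10 of 10 deciles, although the 95% intervals of the widest one, 0.137 to 0.532% with C/EBPβ and 0.596 to 1.31% without, lie close together and rest on 8 and 24 lost DHS.

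**Figure D1:**
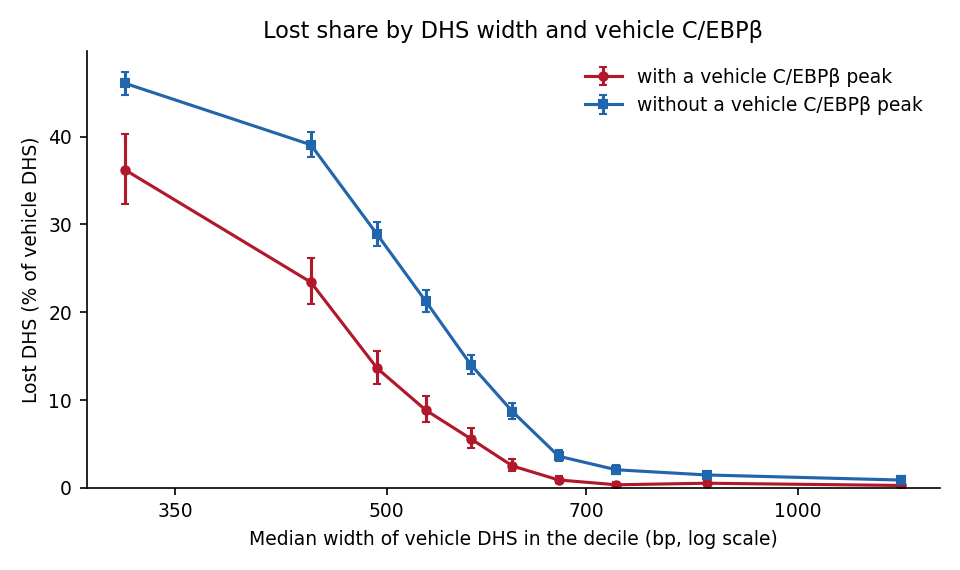
Share of vehicle DHS that were lost (%, y axis) against the median width of each width decile (bp, log scale), for DHS with and without a vehicle C/EBPβ peak; bars are 95% Wilson intervals. Both curves fall with width, and the curve with C/EBPβ is the lower one, for example 23.4% against 39.1% in the second decile. DHS that hold a GR peak are included.

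Where lost DHS did hold C/EBPβ, its peaks were absent after dexamethasone more often than elsewhere. Most dexamethasone C/EBPβ peaks lay in dexamethasone DHS, which lost DHS do not overlap, so this comparison is tied in part to the choice. Among vehicle C/EBPβ peaks, 10.6% were absent from the dexamethasone C/EBPβ list as a whole, with peaks matched by their deposited numbers. The figure was 334 of 933 for peaks in lost DHS (35.8%, 32.8 to 38.9), 1315 of 17890 for peaks in retained DHS (7.35%, 6.98 to 7.74), and 752 of 3891 for peaks outside vehicle DHS (19.3%, 18.1 to 20.6). The share in lost DHS was thus well above the 10.6%, and its interval lies above those of both other places. Within deciles of DHS width the odds ratio of lost over retained was 5.24 (95% interval 4.46 to 6.16), and the share in retained DHS reweighted to the widths of lost DHS was 10.3%. Among DHS at or above the median width the odds ratio was 9.78, where 42.4% of peaks in lost DHS and 6.17% in retained DHS were absent.

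This difference had the same direction on all 20 chromosomes that had a vehicle C/EBPβ peak in a lost DHS. In lost DHS the absent share ran between 23.7% on chromosome 7 and 54.5% on chromosome 18, and in retained DHS between 4.94% on chromosome 17 and 11.0% on chromosome X. The 2 ranges did not overlap. The shares in lost DHS rest on few peaks, between 14 on chromosome X and 79 on chromosome 2. Chromosomes are parts of the same lists and not replicates of the treatment. Chromosome Y had no C/EBPβ peak in a lost DHS.

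**Figure D2:**
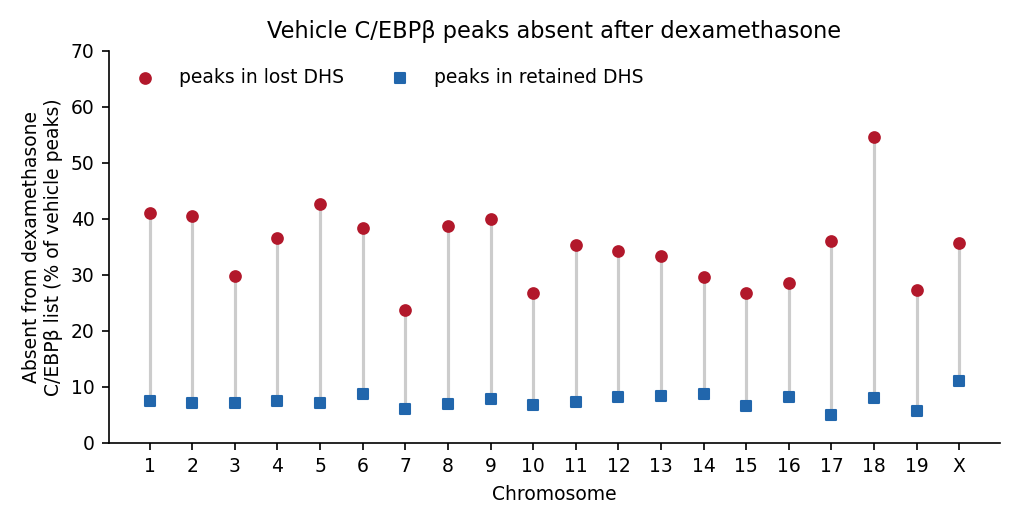
Share of vehicle C/EBPβ peaks that were absent from the dexamethasone C/EBPβ list (%, y axis) on each chromosome, for peaks in lost DHS (circles) and in retained DHS (squares). Every circle, from 23.7% up, lies above every square, of which the highest is 11.0%. Each circle rests on 14 to 79 peaks, and no intervals are drawn.

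Most C/EBPβ peaks in lost DHS were nevertheless found again after dexamethasone. Of the 928 lost DHS with a vehicle peak, 596 also held a dexamethasone peak (64.2%, 61.1 to 67.2), against 15596 of 16759 retained DHS (93.1%, 92.7 to 93.4). The C/EBPβ peaks that lay in lost DHS after dexamethasone, 660 in all, overlapped a dexamethasone DHS in 3 cases. The choice of sites largely fixes this, since a lost DHS shares no base with a dexamethasone DHS. The other peaks formed 657 of the 3617 dexamethasone C/EBPβ peaks outside dexamethasone DHS (18.2%, 16.9 to 19.5). In lost DHS the centres of peaks in both C/EBPβ lists lay a median of 36 bp from the DHS centre, and those of peaks absent after dexamethasone 31 bp, against 54 bp for both kinds in the wider retained DHS.

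C/EBPβ was seldom gained at lost DHS, which the choice of these sites fixes in part. A gained peak must be in the dexamethasone list, and only 14.2% of that list lay outside dexamethasone DHS. Of the dexamethasone C/EBPβ peaks, 20.0% were absent from the vehicle list as a whole, a share of peaks, while the shares that follow count DHS. Of the lost DHS that held a dexamethasone C/EBPβ peak, 60 of 656 held none in the vehicle list (9.15%, 7.17 to 11.6), against 2907 of 18503 retained DHS (15.7%, 15.2 to 16.2) and 758 of 1678 dex-only DHS (45.2%, 42.8 to 47.6). Of lost DHS with no vehicle peak, 0.794% held a dexamethasone peak (0.617 to 1.02), and of retained ones 9.21% (8.90 to 9.54).

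The 4 combinations of the C/EBPβ lists thus split vehicle DHS into classes that were lost to different degrees. Those with C/EBPβ under vehicle alone were lost in 332 of 1495 cases (22.2%, 20.2 to 24.4). Those with C/EBPβ in neither list were lost in 7500 of 36140 cases (20.8%, 20.3 to 21.2), those with it in both lists in 596 of 16192 (3.68%, 3.40 to 3.98), and those with it in the dexamethasone list only in 60 of 2967 (2.02%, 1.57 to 2.59). The intervals of the first 2 classes overlap. All 4 classes use the dexamethasone C/EBPβ list, most of which lies in dexamethasone DHS, so their shares are tied in part to the choice. From their width deciles alone these classes would have lost 15.0%, 18.1%, 8.81% and 9.44%. The classes with C/EBPβ under vehicle alone and in neither list were thus lost more often than their widths give. Those with C/EBPβ after dexamethasone were lost less often. By number, lost DHS without C/EBPβ in either list made up 88.4% of all lost DHS, and such DHS made up 88.4% of dex-only DHS as well (13324 of 15076).

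**Figure D3:**
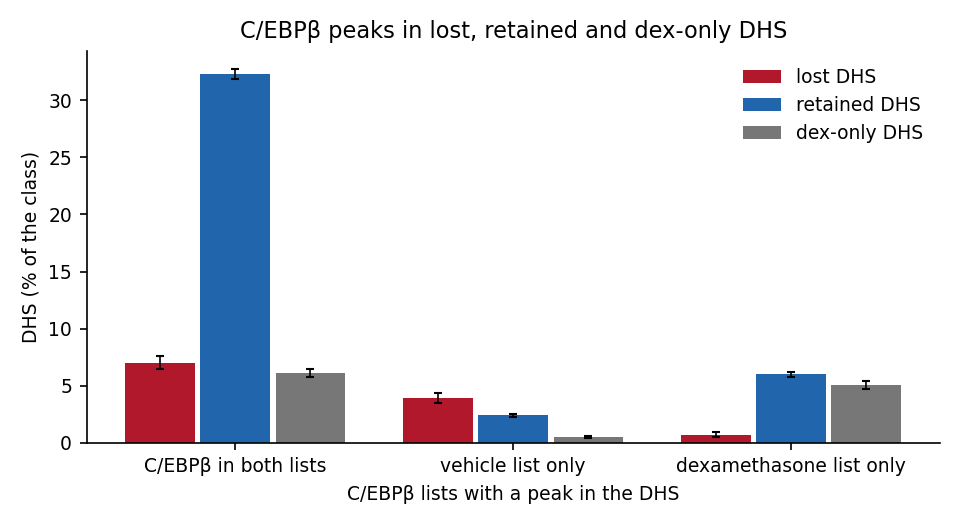
Share of lost, retained and dex-only DHS (%, y axis) with a C/EBPβ peak in both lists, in the vehicle list only or in the dexamethasone list only; bars are 95% Wilson intervals. Lost DHS had C/EBPβ in both lists in 7.02% of cases, in the vehicle list only in 3.91% and in the dexamethasone list only in 0.707%, against 32.3%, 2.41% and 6.02% of retained DHS.

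GR peaks inside lost DHS were nearly absent, which the choice of these sites largely fixes. A dexamethasone DHS overlapped 96.6% of the GR peaks, so few were left for sites that share no base with one. A GR peak lay in 13 lost DHS (0.153%, 0.0895 to 0.262) and in 8712 of the 48306 retained ones. The 13 had a median width of 438 bp and a median gap to the nearest dexamethasone DHS of 4880 bp (74 to 66819 bp). Of these 13, 6 held a vehicle C/EBPβ peak, beside 10.9% of all lost and 34.7% of all retained DHS, and a difference was not tested. The 5 widest, between 495 and 569 bp, lay on chromosome 17 (chr17:24341729-24342298), 3 on chromosome 6 (chr6:71899607-71900162, chr6:84101470-84101994 and chr6:138048072-138048585) and 1 on chromosome 2 (chr2:167480424-167480919), positions as in the mm9 lists. The site on chromosome 17 held C/EBPβ in both lists and the third on chromosome 6 in the vehicle list only.

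Lost DHS also lay farther from GR peaks outside the DHS, a comparison that is tied to the choice in part. Among DHS without a GR peak of their own, one lay within 10 kb of 1488 of 8475 lost DHS (17.6%, 16.8 to 18.4) and of 9487 of 39594 retained DHS (24.0%). With deciles of width and of the number of other vehicle DHS within 10 kb as factors, the odds ratio was 0.719 (95% interval 0.644 to 0.801), and the share with GR within 10 kb was lower at lost than at retained DHS on all 20 chromosomes with a GR peak. With limits of 2 kb and 50 kb the odds ratios were 0.552 (0.469 to 0.649) and 0.902 (0.817 to 0.996), so the upper bound at 50 kb was close to 1. A vehicle DHS that overlaps a dexamethasone DHS with a GR peak is retained by construction. Leaving such DHS out, which was chosen after seeing the data, gave odds ratios of 0.795 at 10 kb (0.710 to 0.891) and 0.747 at 2 kb (0.630 to 0.885), nearer to 1 in both cases. With a vehicle C/EBPβ peak in the DHS as a further factor the odds ratio at 10 kb was 0.732.

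Read as a share of vehicle DHS, loss became more frequent with distance from GR. It was 8.60% with a GR peak under 1 kb away (178 of 2070, 7.47 to 9.88), 14.1% from 1 to 5 kb, 15.6% from 5 to 10 kb, 17.2% from 10 to 50 kb, 18.6% from 50 to 100 kb, 19.5% from 100 to 500 kb and 22.9% beyond (874 of 3819, 21.6 to 24.2). DHS also became narrower with that distance, with medians of 593 bp under 1 kb and 526 bp beyond 500 kb. From width deciles alone the 7 shares would be 16.4%, 15.5%, 15.8%, 16.4%, 17.4%, 19.2% and 22.3%. The largest departure was thus the deficit under 1 kb, while beyond 100 kb the observed shares were within 1 point of those from width. Of the 2070 DHS with GR under 1 kb away, 522 overlapped a dexamethasone DHS that itself held a GR peak. Without these, all of which were retained by construction, 11.5% were lost, against 14.2% from width.

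**Figure D4:**
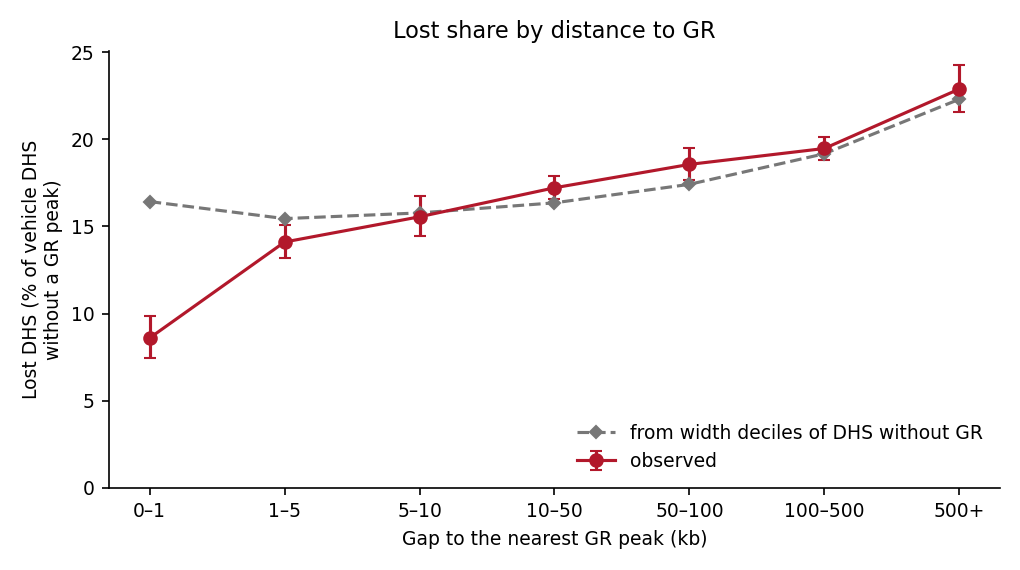
Share of vehicle DHS without a GR peak that were lost (%, y axis) by the gap to the nearest GR peak (kb), with 95% Wilson intervals, beside the share that the width deciles of the same DHS give (dashed). The observed share is 8.60% under 1 kb, where width gives 16.4%, and comes close to the dashed line from 5 kb on.

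C/EBPβ, GR and width together separated sites with very different losses. Among DHS below the median width with no GR peak of their own, 16.1% were lost with both a vehicle C/EBPβ peak and GR within 10 kb (14.1 to 18.4), 17.0% with C/EBPβ alone (15.8 to 18.2), 26.4% with GR alone (25.1 to 27.7) and 33.9% with neither (5806 of 17137, 33.2 to 34.6). Among DHS at or above the median width the shares were 0.971% with both (0.623 to 1.51), 1.59% with C/EBPβ alone (1.27 to 1.98), 3.92% with GR alone (3.33 to 4.61) and 4.09% with neither (3.74 to 4.47). DHS that overlap a dexamethasone DHS with a GR peak were kept here and are retained by construction, which lowers the shares with GR nearby. Width also varied within each of the 2 width groups. Among narrow DHS without C/EBPβ the intervals with and without GR nearby did not overlap, a difference that is thus tied in part to the choice. In the other 3 pairs they did, and whether the pairs differ from each other was not tested.

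Lost DHS were somewhat more isolated than retained ones. The median gap to the nearest other vehicle DHS was 4656.5 bp for lost DHS (interquartile range 1030 to 17362 bp) and 3302 bp for retained DHS (758 to 11968 bp), and 4.28% of lost against 2.30% of retained DHS had none within 100 kb. With no other vehicle DHS within 10 kb 17.8% were lost, with 1 it was 15.2%, with 2 14.0%, with 3 to 5 12.4% and with 6 or more 11.6%. Width deciles alone give 17.4%, 15.2%, 13.9%, 12.7% and 12.1%, all within 1 point. The trend with the number of neighbours was thus close to the one widths give, though slightly steeper.

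The nearest vehicle DHS was itself lost for 1663 lost DHS (19.6%) and for 6475 retained DHS (13.4%). Loss of a site and loss of its neighbour both come from the 2 lists that chose the sites, so these shares are a description and support no further statement. By the gap to that neighbour they were 22.9% at lost and 11.4% at retained DHS under 1 kb, 17.9% and 13.1% from 1 to 10 kb, 18.7% and 15.6% from 10 to 100 kb, and 23.1% and 20.0% beyond 100 kb.

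A dex-only DHS lay within 10 kb of 1614 lost DHS (19.0%) and of 14065 retained DHS (29.1%). Lost and dex-only DHS are both defined by overlap between the same pair of lists, and a dex-only DHS that reached a vehicle DHS would make it a retained one, so these shares too are only a description.

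**Figure D5:**
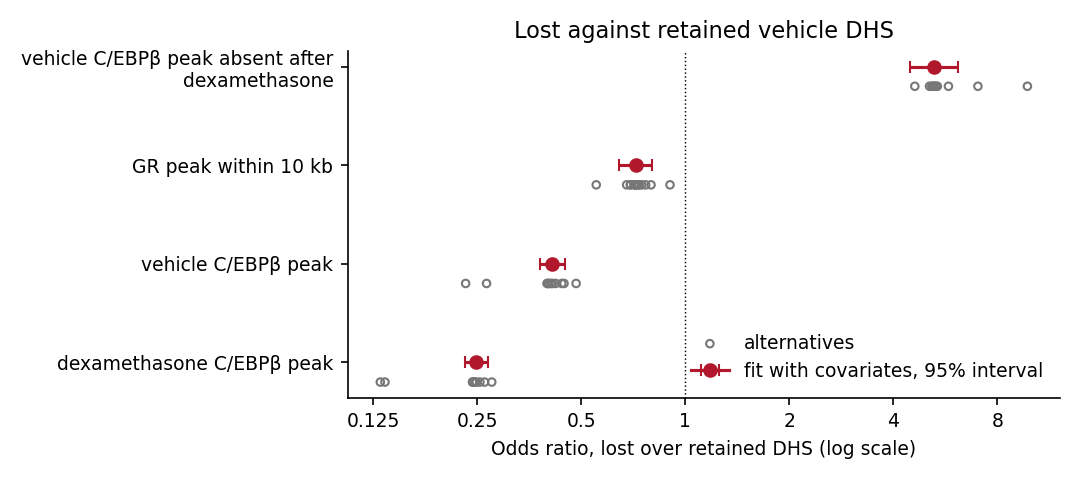
Odds ratios of lost over retained DHS (log scale) for 4 properties, from logistic regression with width and, for GR, the number of neighbours as factors; filled points have 95% intervals clustered by chromosome and open points are the alternatives run, without the one that keeps DHS holding a GR peak. No point crosses 1, and the values run between 0.131 and 9.78.

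Along the genome, lost DHS were spread thinly. The lost share was between 13.6% (chromosome 19) and 17.1% (chromosome X) on the autosomes and X, and 9 of 101 on chromosome Y (8.91%, 4.76 to 16.1). The Wilson interval held the share of the whole list on 16 of 21 chromosomes. It lay above that share on chromosomes 2, 8, 14 and X and below it on chromosome 7. Of 14626 windows of 100 kb with a vehicle DHS, 6140 held a lost DHS, 4448 of them exactly 1 and 490 of them 3 or more. In 1015 windows every vehicle DHS was lost, but 896 of these windows had only 1. Of the lost DHS, 5616 (66.2%) had a retained DHS on either side or the end of the list, and 2872 (33.8%) stood in runs of 2 or more consecutive vehicle DHS that were all lost.

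The longest run, 6 consecutive vehicle DHS, covered 13.5 kb on chromosome 8 (chr8:122447481-122460957), with no dexamethasone DHS, C/EBPβ or GR peak at any of its sites. Another 9 runs had 5 DHS each. The 4 of them with the largest summed DHS width lay at chr14:58580674-58616487, chr6:129136511-129140380, chr2:127188127-127202429 and chr8:105727575-105927100, with spans of 35.8, 3.87, 14.3 and 199.5 kb, and none of the DHS in these 4 held a vehicle C/EBPβ or GR peak. Of the windows of 100 kb, 2 shared the highest number of lost DHS, 7 each, both on chromosome 8. The one from position 122400000 contained the longest run, with 7 of 13 vehicle DHS lost, no dex-only DHS, no GR peak and 4 vehicle C/EBPβ peaks. The other, 500 kb before it from 121900000, lost 7 of 16 vehicle DHS and held 1 dex-only DHS, 2 GR and 5 vehicle C/EBPβ peaks. The next 3 windows in order of number and then share of DHS lost began at 31700000 on chromosome 11 (6 of 12 lost, 4 GR peaks), 167400000 on chromosome 2 (6 of 13, 3 GR peaks) and 49800000 on chromosome 16 (6 of 14, 3 GR peaks). Windows with many losses could thus hold GR peaks.

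Wide lost DHS were few. The 5 widest measured 3701, 2487, 2228, 1644 and 1586 bp, at chr18:65408059-65411760, chr8:121969070-121971557, chr5:125861872-125864100, chr3:146295606-146297250 and chr13:73763268-73764854. The nearest dexamethasone DHS was 3942 to 21640 bp away, so none was a site that had shifted by a few bases. The site on chromosome 5 held 1 vehicle C/EBPβ peak that was absent after dexamethasone, the site on chromosome 13 held 1 that was in both lists, and the other 3 held none. The site on chromosome 8 lay in the second of the windows above and had a lost DHS 241 bp away.

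A single lost DHS seldom held more than 1 vehicle C/EBPβ peak. The 5 with most had 2 each, at chr9:57518712-57519865, chr15:3530069-3530986, chr18:43068945-43069812, chr17:31530625-31531182 and chr12:73772687-73772963. On chromosomes 9, 17 and 12 both peaks were also in the dexamethasone list, on chromosome 15 one of the pair was, and on chromosome 18 neither was. The site on chromosome 18 was also the most remote of the 5, with 31244 bp to the nearest dexamethasone DHS, against 714 to 6217 bp for the others. No gene or sequence is given for these positions, since no annotation or genome of the mm9 build was used here.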

How the data were processed

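DNase-seq and ChIP-seq of mouse liver were used as 5 interval lists deposited by the authors, whose values are mm9 positions only (chromosome, start, end and a running number, per the file headers). Per the submitters' processing notes, CASAVA 1.8 and mm9 were used; the aligner, caller, threshold and any pooling are not given. Positions are printed as deposited and intervals were taken as half-open. Of the vehicle DHS, 1245 overlapped another one in the same list. The adenovirus, RNA polymerase II and input samples were not analysed here.

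Overlap meant 1 bp or more and "within 10 kb" a gap below 10 kb. A single C/EBPβ peak was called absent from the other C/EBPβ list where its deposited number was not found there, whatever its position. Odds ratios came from logistic regression (statsmodels 0.14.6, Python 3.11.15) with deciles as factors and 95% intervals clustered by chromosome; they compare classes of regions, not treatments, and no p-values were computed. A share "from width" averages the lost share of each DHS's width decile. The fits were tested on simulated data, and overlap counts were checked against bedtools 2.31.1. Named regions are the 5 widest lost DHS, the 5 with most vehicle C/EBPβ peaks (ties by width), the 5 widest with GR, the 5 longest runs (ties by summed width), the 5 windows with most losses (ties by lost share) and the 5 sites at each edge of the rule. The members, comparisons and these rules were chosen with earlier results of these data known. Depth is unknown.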

Additional observations from a re-analysis of the deposited data

How the results depend on the processing

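The 4 odds ratios for C/EBPβ and GR kept their direction, with 95% intervals that exclude 1, in each of the 10 to 14 alternatives counted for each. Their ranges were 4.61 to 9.78 for absent C/EBPβ peaks, 0.552 to 0.902 for GR, 0.231 to 0.483 for vehicle C/EBPβ and 0.131 to 0.275 for dexamethasone C/EBPβ. Those that use the dexamethasone C/EBPβ list or the GR list stay tied in part to the choice of sites. The one for vehicle C/EBPβ is tied through DHS with a GR peak, except at 0.483, the alternative that left these out. Keeping DHS that hold a GR peak gave 0.485 for GR, which the choice of sites largely fixes and which is not counted. The lost share, the median width of lost DHS and their median gap to the nearest vehicle DHS moved with the definition. They were 15.6%, 450 bp and 4274 bp when a retained DHS had to be overlapped over at least 50 percent of the shorter interval. A dexamethasone DHS within 500 bp counted as retention gave a share of 12.9% and a gap of 6506 bp. DHS at or above the median width gave 2.46%, 635 bp and 6203 bp, with a median lost share over chromosomes of 2.47%, and DHS below it, an alternative chosen after seeing the data, 27.4%, 446 bp and 12926.5 bp. In both of these settings the gap was to the nearest DHS of the same width group, not to any vehicle DHS. Cutting the dexamethasone list to the vehicle length gave 18.7% and 459 bp. Leaving out 150-bp and 251-bp DHS, chromosome Y and overlapping vehicle DHS, also chosen after seeing the data, gave 460 bp and 5176 bp, the gap again among the DHS kept. These shifts follow from which DHS each setting keeps. Counting touching intervals as overlapping, also chosen after seeing the data, moved none of these values beyond its 95% interval.

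No paired analysis was possible because each condition has 1 list with no replicate column, so leaving out a replicate was not run. The lists hold no signal, and the calling threshold was not varied.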
